A study of Mus musculus with 6 samples.

Results

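Endothelin, nitric oxide and angiotensin genes were followed in lung cells, captured as endothelial, of mouse pups bred for endothelial deletion of Smad4, a transcription factor of BMP and TGF-beta signaling. The set was 10 genes taken by symbol from the deposited counts, where all 10 were found among 24951 genes and all 10 passed the filter on low counts. They are the endothelin ligand gene Edn1, its processing enzyme gene Ece1 and receptor genes Ednra and Ednrb, the angiotensin-converting enzyme gene Ace, the endothelial nitric oxide synthase gene Nos3, the enzyme genes Ddah1 and Ddah2, and the nitric oxide receptor subunit genes Gucy1a1 and Gucy1b1. The mutant pups (Smad4 f/f;Cdh5-CreERT2, labelled Smad4 iECKO mutant) were floxed for Smad4 on both alleles and carried Cdh5-CreERT2, a Cre recombinase that tamoxifen activates in endothelial cells. Control pups (Smad4 f/f, labelled Wildtype) had the same floxed alleles and no Cre, so that no group had Cre with intact Smad4, and the labels give neither the dose nor the day of tamoxifen. Lungs were taken at postnatal day 5, cells were captured on beads coated with antibody to CD31, and polyadenylated RNA was sequenced in 3 mutant and 3 control libraries. One protocol sentence also calls the mice HHTiECKO and HHTf/f, names the labels do not explain. The study title names retinoic acid signaling and pulmonary arteriovenous malformations.

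Endothelin-1 is made as a precursor, cut to its active form by endothelin-converting enzyme, and acts on the A receptor of smooth muscle, which contracts, and on the B receptor, which in endothelium releases nitric oxide and clears the peptide. Nitric oxide made by endothelial synthase diffuses to soluble guanylate cyclase in smooth muscle and pericytes, and the cyclic GMP made there relaxes the vessel. Angiotensin-converting enzyme, abundant on the surface of lung capillary endothelium, makes angiotensin II and breaks down bradykinin.

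Reads assigned to genes came to 16041786 to 20172318 in the mutant and 14093564 to 21113926 in the control libraries. Levels are given as CPM, counts scaled to a common library size. Smad4, the targeted gene, had 88.8, 72.9 and 94.2 CPM in mutant replicates 1, 2 and 3, against 188, 177 and 181 CPM in control replicates 1, 2 and 3 (log2 fold change -1.09, adjusted p = 0.000604). Its RNA was 2.13-fold lower in mutants and was still present in each of them, and protein was not measured. Endothelial markers were abundant in every library, with Cdh5 at 2361 to 2496 CPM in mutants and 2087 to 2307 CPM in controls. RNA of other lung cells was also present, since the surfactant gene Sftpc stood at 1016 to 1101 CPM in mutants and 734 to 1359 CPM in controls. Of 10 endothelial markers, 0 rose and 1, the angiopoietin receptor gene Tek, fell (log2 fold change -0.50, adjusted p = 0.0128). Their summed level was 9651 to 9874 CPM in mutants and 9206 to 10220 CPM in controls.

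Ace fell in the mutants, and Edn1 was lower in every mutant than in every control library but did not pass the test across all genes. The other 8 genes, Nos3 among them, did not pass the test, and their libraries overlapped between groups. In counts, 0 of the 10 genes rose, 1 fell and 9 did not pass. Over all 14934 genes tested, 3.27% were called at a Benjamini-Hochberg adjusted p under 0.05 in edgeR's quasi-likelihood test, 1.93% as higher and 1.34% as lower in mutants. The 2 genes whose groups did not overlap compare with 20.6% of all genes tested, 9.04% in the lower direction, and the 4 genes at an unadjusted p under 0.05 compare with 14% of them. The median log2 fold change of the 10 genes was 0.06, beside 0.00 for all genes tested.

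**Figure D1:**
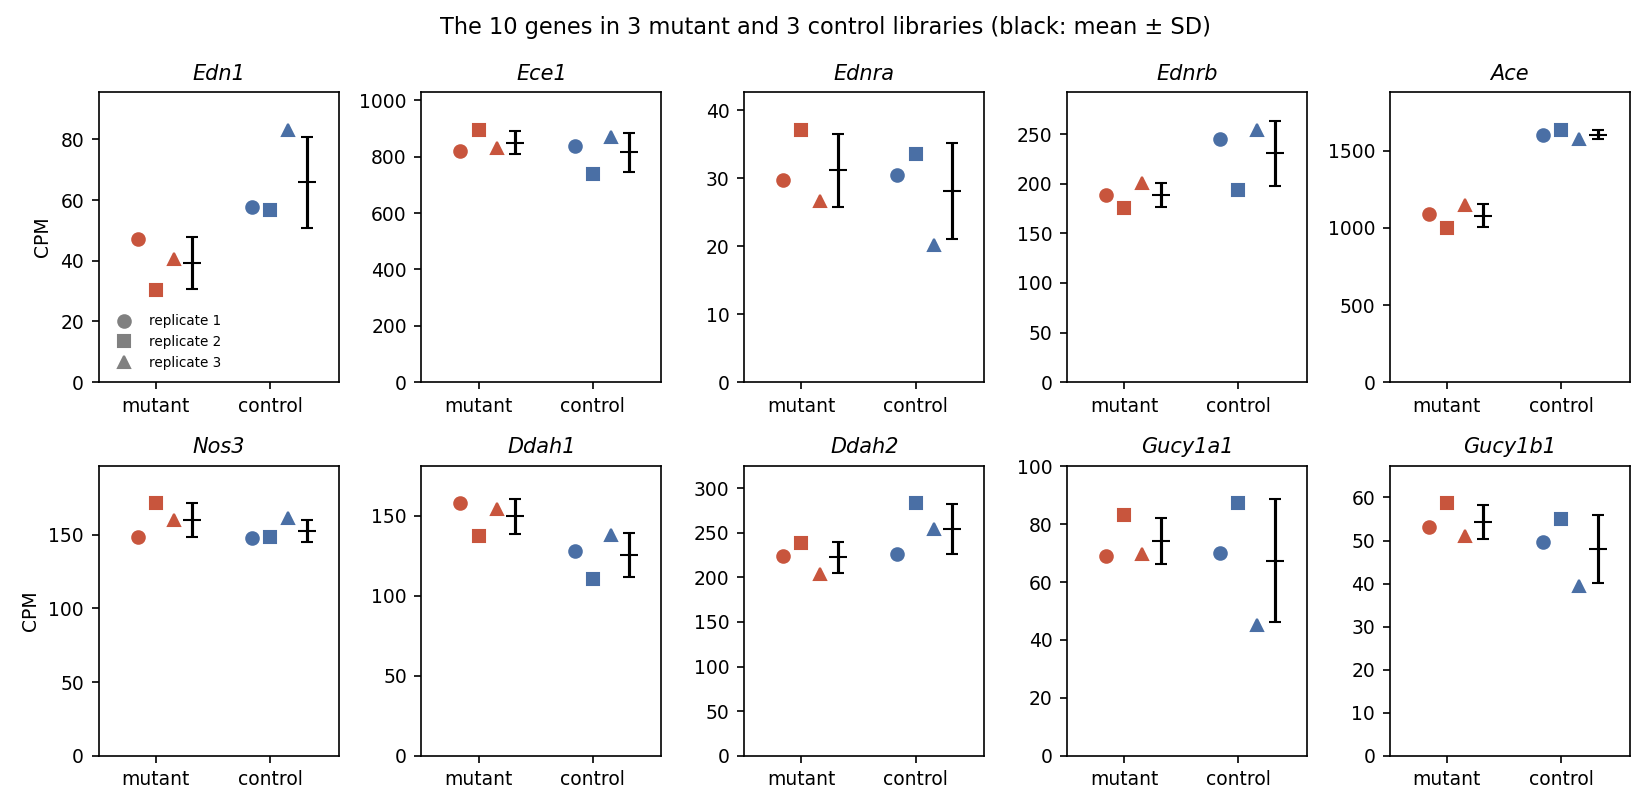
Level in CPM (vertical axes, from 0) of each of the 10 genes in the 3 mutant and 3 control libraries, with replicates as symbols and the mean ± SD in black. The mutant libraries lie below all control libraries for Ace and Edn1, and the groups overlap for the other 8 genes.

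Edn1 (ENSMUSG00000021367.8), which encodes the precursor of endothelin-1, lies on the plus strand of GRCm38 at chr13:42301476-42307990. Its level was 47.2, 30.3 and 40.7 CPM in mutant replicates 1, 2 and 3, against 57.7, 56.8 and 83.2 CPM in control replicates 1, 2 and 3. The lowest library of all was mutant replicate 2 and the highest control replicate 3, and the groups did not overlap. Means were 39.4 ± 8.53 CPM in mutants and 65.9 ± 15.0 CPM in controls (SD, n = 3 each). On the log2 scale the difference was -0.74 (SE 0.20), 1.67-fold lower in mutants, and it missed the threshold in edgeR (adjusted p = 0.106). DESeq2 called it on the same counts (adjusted p = 0.00329), and over 14 alternative fits the adjusted p ran from 0.00329 to 0.309. Without mutant replicate 2 the log2 fold change was -0.59 and without control replicate 3 it was -0.54. With 482 to 1725 reads per library, the counting error of one library was at most 4.56%, well under the spread between libraries of a group.

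SMAD proteins bind short DNA motifs, and the window of 250 bases before the Edn1 start is shown because Smad4 is the targeted gene. It is the plus strand of chr13:42301226-42301475 (RefSeq, GRCm38.p6), with capitals marking motif matches.
Edn1 promoter: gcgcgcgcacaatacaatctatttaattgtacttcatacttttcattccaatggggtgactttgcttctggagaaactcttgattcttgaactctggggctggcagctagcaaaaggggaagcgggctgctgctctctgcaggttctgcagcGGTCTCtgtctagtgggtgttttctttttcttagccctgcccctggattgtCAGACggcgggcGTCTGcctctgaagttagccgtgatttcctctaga
The search covered both strands. Motifs for SMAD proteins were CAGAC, a SMAD box with a flanking base, and GGCGCC, a GC-rich element. Motifs for other factors were TGANTCA for AP-1, AGATAA for the GATA family, GAGACC, known as a shear stress element, and CACGTG, the E-box. In the Edn1 window CAGAC stands as written at 47 to 43 bases before the start and on the opposite strand at 35 to 31 bases, and GAGACC on the opposite strand at 98 to 93 bases. The 3 matches do not overlap. CAGAC occurs in 42.2% of 32851 promoter windows of this length and GAGACC in 13.7%. Of the 10 genes 9 had a window in the table, with 14 windows between them, since a gene may have several starts. Of these 14 windows 9 held CAGAC, from 7 genes, 2 held GGCGCC, 1 held GAGACC, 1 held CACGTG and 0 held either of the others. For a Gucy1a1 window among the 9, the bases after the start were not found near the beginning of a transcript of that gene. The other Gucy1a1 window held CAGAC too. The windows of Ace and Ddah2 held none of the 6 motifs. TGANTCA occurs in 6.75%, AGATAA in 9.99%, GGCGCC in 9.59% and CACGTG in 6.02% of all windows. A match of letters is a description and not a site of binding.

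Ece1 (ENSMUSG00000057530.14, plus strand, chr4:137862237-137965229), the endothelin-converting enzyme gene, did not pass the test. It had 822, 896 and 832 CPM in mutant replicates 1, 2 and 3, against 837, 739 and 869.9 CPM in control replicates 1, 2 and 3. The groups overlapped, with the highest library a mutant and the lowest a control. The log2 fold change was 0.06, with an interval of 2 SE either side from -0.12 to 0.24 (adjusted p = 0.817). Its sign turned without control replicate 2, at -0.01.

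The receptor genes differed in level and in which libraries were high. Ednrb (ENSMUSG00000022122.15, minus strand, chr14:103814625-103844402), the B receptor gene, is known in the lung as a gene of aerocytes, the large capillary cells of gas exchange. It had 189, 176 and 201 CPM in mutant replicates 1, 2 and 3, against 245, 193.5 and 254 CPM in control replicates 1, 2 and 3. Control replicate 2 lay among the mutants, and the other control libraries lay above them. Its log2 fold change was -0.29 (SE 0.11, adjusted p = 0.253), and over the 6 fits without a library it ran from -0.40 to -0.22. Of 10 aerocyte markers, the apelin ligand gene Apln rose, with a log2 fold change of 1.70, while the transcription factor gene Tbx2, the lectin gene Clec1a and Fibin fell, with -0.51, -0.59 and -0.83, and 6 did not pass. Their summed level was 3127 to 3411 CPM in mutants and 2854 to 3160 CPM in controls. Apln alone gave 651 to 742 CPM of that sum in mutants and 188 to 229 CPM in controls. Of the 10 markers, 4 had a log2 fold change above 0 and 6 below 0. The part of aerocyte number or state in the level of Ednrb was not tested.

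Ednra (ENSMUSG00000031616.7, minus strand, chr8:77663031-77724464), the A receptor gene, is known chiefly from smooth muscle, pericytes and fibroblasts. Its level was 29.8, 37.1 and 26.6 CPM in mutant replicates 1, 2 and 3, against 30.5, 33.6 and 20.2 CPM in control replicates 1, 2 and 3. Mutant replicate 2 was the highest library and control replicate 3 the lowest, and the groups overlapped. The log2 fold change was 0.15, with an interval of 2 SE either side from -0.25 to 0.55 (adjusted p = 0.788). It was -0.04 without control replicate 3.

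Gucy1a1 (ENSMUSG00000033910.13, minus strand, chr3:82092427-82145789) and Gucy1b1 (ENSMUSG00000028005.13, minus strand, chr3:82032006-82074689) encode the alpha and beta subunits that pair to form soluble guanylate cyclase, and they are neighbours on the chromosome. Gucy1a1 had 69.2, 83.2 and 69.8 CPM in mutant replicates 1, 2 and 3, against 70.0, 87.2 and 45.0 CPM in control replicates 1, 2 and 3. Gucy1b1 had 53.1, 58.6 and 51.1 CPM in the same mutant libraries, against 49.6, 54.9 and 39.5 CPM in the same controls. Both genes were lowest in control replicate 3, and in each group both were highest in replicate 2. The log2 fold changes were 0.14 with an SE of 0.22 for Gucy1a1 (adjusted p = 0.835) and 0.18 with an SE of 0.13 for Gucy1b1 (adjusted p = 0.588), and neither passed. Without control replicate 3 they were -0.09 for Gucy1a1 and 0.06 for Gucy1b1. Per exon length and within a library, Gucy1a1 stood at 0.734, 0.8001 and 0.7697 of the level of Gucy1b1 in mutant replicates 1, 2 and 3, against 0.796, 0.895 and 0.643 in control replicates 1, 2 and 3.

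Markers of smooth muscle and pericytes were present in every library, and their sum, like Ednra, Gucy1a1 and Gucy1b1, was lowest in control replicate 3. The 14 markers summed to 436, 559.5 and 438 CPM in mutant replicates 1, 2 and 3, against 451, 450.2 and 303 CPM in control replicates 1, 2 and 3. All 14 were tested, 0 rose and 0 fell in edgeR, and 0 were at 0 in any library. At an unadjusted p under 0.05 there was 1, the pericyte gene Rgs5, beside 14% of all genes tested. The median log2 fold change was 0.17, the highest being 1.05 for Rgs5. Among mutants Rgs5 was lowest in replicate 2, at 60.5 CPM, where the sum was highest. Acta2, the most abundant, had 68.3 to 112 CPM in mutants and 67.0 to 89.6 CPM in controls. Fibroblast markers summed to 1289 to 1920 CPM in mutants and 1029 to 1517 CPM in controls, with 1 of 10, the collagen gene Col14a1, higher (log2 fold change 1.28). Fibroblast and epithelial markers were also lowest in control replicate 3, where they summed to 1029 and 2191 CPM. The part of these cells in the levels of Ednra, Gucy1a1 and Gucy1b1 was not tested.

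**Figure D2:**
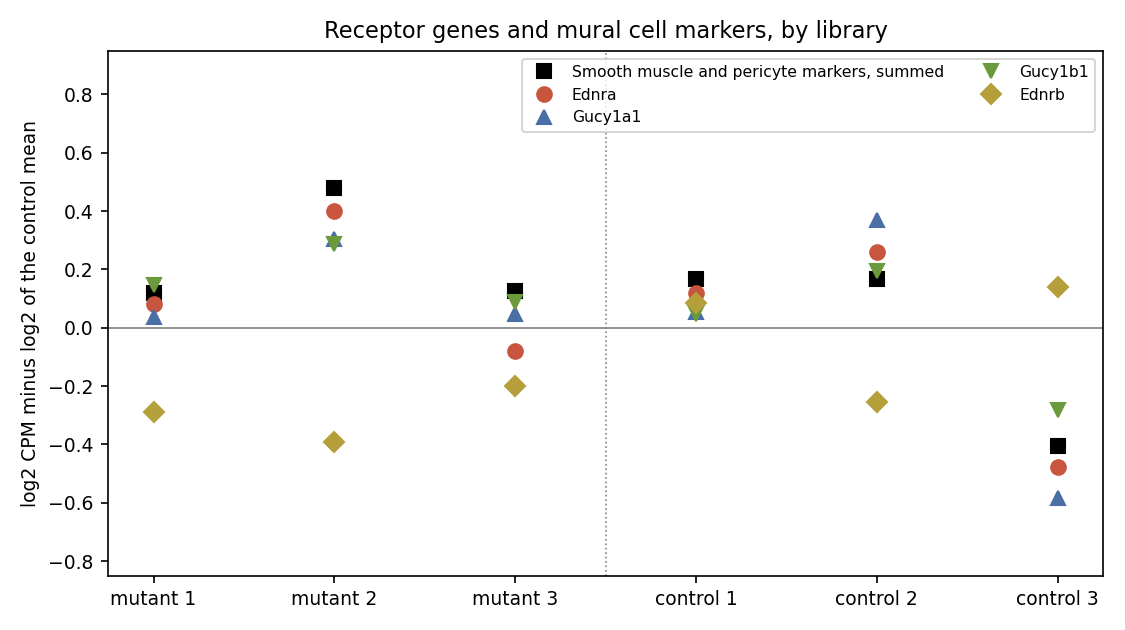
Log2 CPM minus the log2 of the control mean (vertical axis) in each library for Ednra, Gucy1a1, Gucy1b1, Ednrb and the sum of 14 smooth muscle and pericyte markers. Control replicate 3 is the lowest library for the marker sum and for Ednra, Gucy1a1 and Gucy1b1, while Ednrb is at its highest there.

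Ace (ENSMUSG00000020681.14, plus strand, chr11:105967945-105989964) was the gene of the set that fell. Its level was 1088, 1002 and 1149.6 CPM in mutant replicates 1, 2 and 3, against 1600.4, 1636 and 1579 CPM in control replicates 1, 2 and 3. The control libraries lay close together and every mutant library lay well below them. Means were 1079.9 ± 74.0 CPM in mutants and 1605 ± 28.9 CPM in controls (SD, n = 3 each), a 1.49-fold lower level in mutants. Its log2 fold change was -0.57 (SE 0.08, adjusted p = 0.00378). The call was kept in 14 of 14 alternative fits, with an adjusted p of at most 0.0300 and a log2 fold change from -0.62 to -0.52. In such bulk samples, fewer cells of a type and less RNA per cell cannot be told apart.

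The antisense gene Gm11651 shares 295 exon bases with Ace, and the use of strand in counting is not given. Whether reads of the shared bases were counted for a gene or set aside as ambiguous is therefore not known. Gm11651 had 102, 92.7 and 110.5 CPM in mutants and 144, 172 and 150.1 CPM in controls, and fell as well (log2 fold change -0.61, adjusted p = 0.00869). Its counts were 1477 to 3112 per library, beside 15964 to 34299 for Ace. The somatic enzyme is made from the first start of the gene, and a second start inside it is known for the testis form. The window before the first start is shown because Ace is the called gene of the set. It is the plus strand of chr11:105967698-105967947 (RefSeq, GRCm38.p6), all in lower case because it held no match. Its GC content was 67.2%, against a median of 52.4% over all windows. Most windows of the set lay above that median, up to 69.2% for an Ece1 window, and those of Edn1 (50.4%) and Gucy1b1 (51.2%) below it.
Ace promoter: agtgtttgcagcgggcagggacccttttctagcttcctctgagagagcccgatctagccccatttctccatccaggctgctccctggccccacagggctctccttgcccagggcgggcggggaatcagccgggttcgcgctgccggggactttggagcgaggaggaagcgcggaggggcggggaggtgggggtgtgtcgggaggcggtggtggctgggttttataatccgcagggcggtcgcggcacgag
The absence of these letters from 250 bases says nothing on binding elsewhere.

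**Figure D3:**
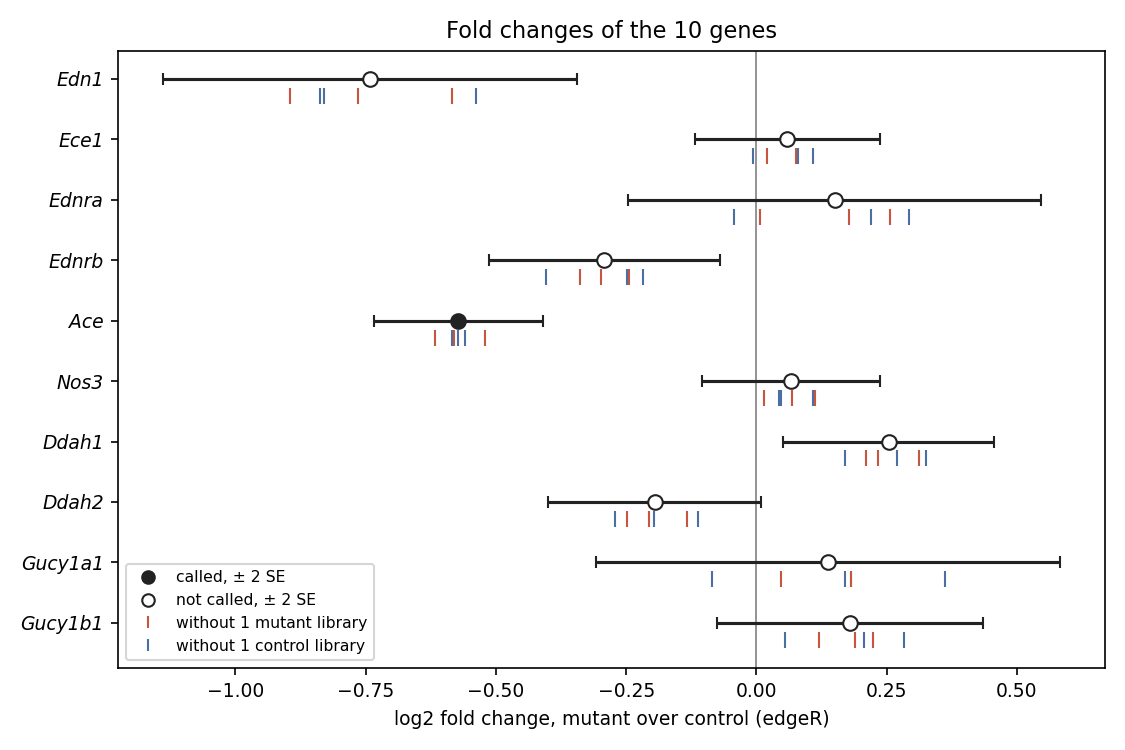
Log2 fold change of mutant over control (horizontal axis) of the 10 genes, as circles with bars of 2 SE either side, filled where called. Ticks under each circle are the 6 fits that left out 1 library, and those of Ece1, Ednra and Gucy1a1 cross 0.

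Nos3 (ENSMUSG00000028978.12, plus strand, chr5:24364810-24384474), the endothelial nitric oxide synthase gene, did not pass the test. It had 148, 171 and 159.9 CPM in mutant replicates 1, 2 and 3, against 148, 149 and 161.5 CPM in control replicates 1, 2 and 3. The groups overlapped over most of their range. Means were 159.9 ± 11.5 CPM in mutants and 153 ± 7.67 CPM in controls (SD, n = 3 each). On the log2 scale the difference was 0.07, and the interval of 2 SE either side ran from -0.10 to 0.24, so a change of the size of that in Ace lay outside it (adjusted p = 0.783). Nos3 shares 294 exon bases with Atg9b, a protein-coding gene of the opposite strand that had 59 to 128 reads per library. Another 1040 are shared by Nos3 and Gm15587, an antisense gene not among the counted genes.

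Ddah1 encodes an enzyme that breaks down asymmetric dimethylarginine, an inhibitor of nitric oxide synthases, and Ddah2 is named for the same enzyme family. Ddah1 (ENSMUSG00000028194.15, plus strand, chr3:145758675-145894277) had 158, 137 and 154 CPM in mutant replicates 1, 2 and 3, against 128, 110.4 and 138 CPM in control replicates 1, 2 and 3. Ddah2 (ENSMUSG00000007039.12, plus strand, chr17:35059035-35062095) had 225, 239 and 204 CPM in the same mutants, against 227, 283 and 254 CPM in the same controls. Ddah1 lay mostly higher and Ddah2 mostly lower in mutants, and each gene overlapped between groups. Log2 fold changes were 0.25 with an SE of 0.10 for Ddah1 (adjusted p = 0.283) and -0.20 with an SE of 0.10 for Ddah2 (adjusted p = 0.443), so neither passed. The ratio of Ddah1 to Ddah2 per exon length, taken after these values were seen and not tested, was 0.281, 0.230 and 0.302 in mutant replicates 1, 2 and 3, against 0.226, 0.156 and 0.217 in control replicates 1, 2 and 3. The ratio did not overlap between groups, with mutant replicate 2 just above control replicate 1.

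Divided by exon length, the 10 genes spanned a wide range of levels. Ace was highest, at 204 ± 14.0 CPM per kb of exon in mutants and 304 ± 5.47 in controls (SD, n = 3 each). Ece1 and Ddah2 followed, in this order in mutants and in the reverse order in controls. Ece1 had 160.3 ± 7.56 CPM per kb in mutants and 154 ± 12.9 in controls, and Ddah2 139.6 ± 11.1 in mutants and 159.8 ± 17.7 in controls. These 3 genes, 2 of them enzymes that activate a peptide hormone, stood apart from the rest. Ednrb came next, with 44.2 ± 2.91 CPM per kb in mutants and 54.1 ± 7.67 in controls. Nos3 had 38.7 ± 2.78 CPM per kb in mutants and 36.9 ± 1.86 in controls, and Ddah1 37.6 ± 2.73 in mutants and 31.5 ± 3.47 in controls. Edn1 had 18.4 ± 3.99 CPM per kb in mutants and 30.8 ± 7.01 in controls. Lowest were Gucy1b1, with 13.8 ± 1.00 CPM per kb in mutants and 12.2 ± 1.99 in controls, Gucy1a1, with 10.6 ± 1.14 in mutants and 9.68 ± 3.04 in controls, and Ednra, with 5.69 ± 0.985 in mutants and 5.13 ± 1.29 in controls. Of 18 neighbouring pairs in the orders of both groups, 12 did not overlap between libraries. Those that did were Ednrb and Nos3, Nos3 and Ddah1, and Edn1 and Gucy1b1 in mutants, and Ddah2 and Ece1, Ddah1 and Edn1, and Gucy1b1 and Gucy1a1 in controls. Edn1 thus overlapped Gucy1b1 in mutants and Ddah1 in controls. Within a library Ednrb stood at 8.16, 6.09 and 9.70 times the level of Ednra in mutant replicates 1, 2 and 3, against 10.3, 7.39 and 16.2 times in control replicates 1, 2 and 3.

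**Figure D4:**
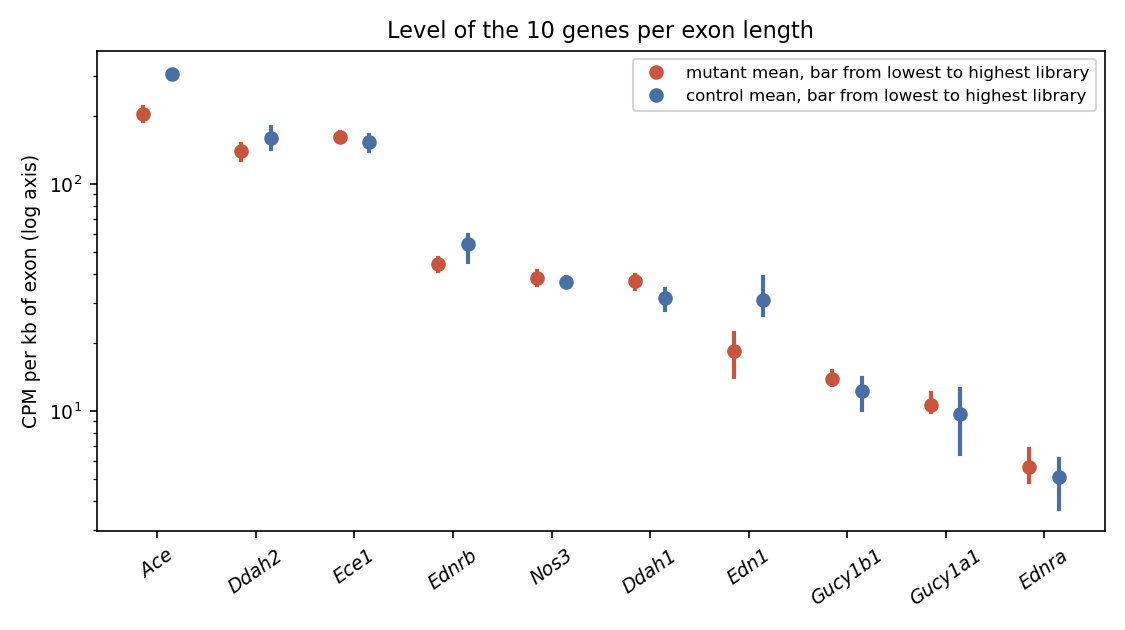
CPM per kb of exon (vertical log axis) of the 10 genes, ordered by the control mean, with mutants left of controls. Points are means and bars run from the lowest to the highest of 3 libraries, and the level ranges from 304 CPM per kb for Ace to 5.13 for Ednra in controls.

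The libraries' pattern of Edn1 was set beside that of 8798 other genes by the root mean square difference of log2 CPM over the 6 libraries, after centring each gene on its own mean. The 3 nearest were Tmem47, a transmembrane protein gene, at 0.15, Pdgfd, a platelet-derived growth factor gene, at 0.16, and Cpne8, a copine gene, at 0.16. Their log2 fold changes were -0.58 for Tmem47, -0.74 for Pdgfd and -0.75 for Cpne8. Because the genes were picked for likeness to Edn1, whose mutants lie below its controls, their direction follows from the choice and is given as a description. For Nos3 the 3 nearest were Ubtf, Tead2 and Ccdc25, at 0.02, 0.02 and 0.03.

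Other genes of the same pathways moved in both directions. Over all genes tested, 3.27% were called, 1.93% as higher and 1.34% as lower in mutants. Of the 9 genes of the endothelin list, 7 were tested and 0 rose or fell in edgeR, with a median log2 fold change of -0.10, while DESeq2 called 1, Edn1. Furin, a protease that cuts the endothelin precursor, had 147 to 197 CPM in mutants and 167 to 206 CPM in controls. Edn3, another endothelin gene, had 10.8 to 15.4 CPM in mutants and 9.60 to 18.7 CPM in controls, and Mme, the endothelin-degrading protease neprilysin, 15.4 to 19.5 CPM in mutants and 13.6 to 25.2 CPM in controls. At an unadjusted p under 0.05 the list held 2 of 7 tested genes, Edn1 and Ednrb, beside 14% of all genes tested. Both are among the 10 genes.

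Of 23 genes of nitric oxide synthesis and arginine supply, 21 were tested, 2 rose, 1 fell and 18 did not pass, with a median log2 fold change of 0.14. Nos2, the inducible nitric oxide synthase known for its induction by cytokines in macrophages and other cells, had 82.4, 89.7 and 71.9 CPM in mutant replicates 1, 2 and 3, against 45.7, 48.8 and 45.8 CPM in control replicates 1, 2 and 3. All mutants lay above all controls (log2 fold change 0.80, SE 0.10, adjusted p = 0.00274). Gch1, the rate-limiting enzyme for the synthase cofactor tetrahydrobiopterin, had 54.2, 54.4 and 46.2 CPM in mutants and 22.6, 34.2 and 28.6 CPM in controls. Its log2 fold change was 0.86 (SE 0.15, adjusted p = 0.0115), and the call ended without mutant replicate 2 (adjusted p = 0.0853, in a range of 8.84e-06 to 0.0853 over the alternatives). Nostrin, which binds the endothelial synthase and is known to draw it from the membrane, fell, with 74.6, 77.8 and 76.4 CPM in mutants and 104, 117 and 132.5 CPM in controls (log2 fold change -0.63, SE 0.10, adjusted p = 0.00771). Cav1, the caveolin that inhibits the endothelial synthase, had 825 to 1006 CPM in mutants and 1102 to 1119 CPM in controls and did not pass (adjusted p = 0.180), and Hsp90aa1 and Akt1, known activators of the synthase, did not pass either (adjusted p = 0.566 and 0.692). Of 11 tested immune markers 0 were called. In each direction 1 was at an unadjusted p under 0.05, beside 14% of all genes tested in either direction. The immune markers summed to 885 to 985 CPM in mutants and 883.5 to 1090 CPM in controls. Their part in the level of Nos2 was not tested.

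Of 14 genes of nitric oxide reception and cyclic GMP, 13 were tested, 0 rose, 1 fell and 12 did not pass, with a median log2 fold change of -0.03. Pde9a, a phosphodiesterase that breaks down cyclic GMP, had 45.6, 44.1 and 47.9 CPM in mutants and 56.5, 65.8 and 66.5 CPM in controls (log2 fold change -0.45, SE 0.10, adjusted p = 0.0359). Its call was kept without control replicate 1 and ended when any of the other 5 was left out (adjusted p from 0.00480 to 0.169 over all alternatives). Prkg1, the cyclic GMP-dependent protein kinase, had 17.8, 19.0 and 17.5 CPM in mutants and 24.3, 31.4 and 23.5 CPM in controls. Its groups did not overlap, and its log2 fold change of -0.54 (SE 0.14) was further from 0 than that of Pde9a but did not pass (adjusted p = 0.0686). DESeq2 and the fit with no filter on low counts each called 2 genes of the list as lower. Pde3a, Vasp and Pde5a, the most abundant others, did not pass, with log2 fold changes of -0.20, 0.18 and -0.14.

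The natriuretic peptide receptors, a second route to cyclic GMP, showed 1 gene higher and 1 lower among 3 tested. Npr3, the receptor that clears natriuretic peptides, rose, with 277, 300.5 and 256 CPM in mutants and 181, 152 and 171 CPM in controls (log2 fold change 0.73, SE 0.10, adjusted p = 0.00279). Npr1, the guanylate cyclase receptor for atrial natriuretic peptide, fell, with 307, 316 and 333 CPM in mutants and 380.1, 433 and 414 CPM in controls (log2 fold change -0.36, SE 0.08, adjusted p = 0.0483). The call of Npr1 was kept without control replicate 1 and ended in the other 5 fits without a library (adjusted p from 0.00669 to 0.184 over all alternatives). Npr2 did not pass (log2 fold change -0.22, adjusted p = 0.638).

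Of 18 renin-angiotensin and bradykinin genes, 12 were tested, and Ace was the 1 that was called. The median log2 fold change was 0.00. The angiotensin receptor gene Agtr1a stood at 1.56 to 2.03 CPM in mutants and 0.482 to 1.59 CPM in controls, and the renin gene Ren1 had no read in any library. Prcp, a carboxypeptidase that breaks down angiotensin II, Atp6ap2, the prorenin receptor gene, and Lnpep, an aminopeptidase known to bind angiotensin IV, did not pass, with log2 fold changes of 0.32, 0.28 and -0.15.

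**Figure D5:**
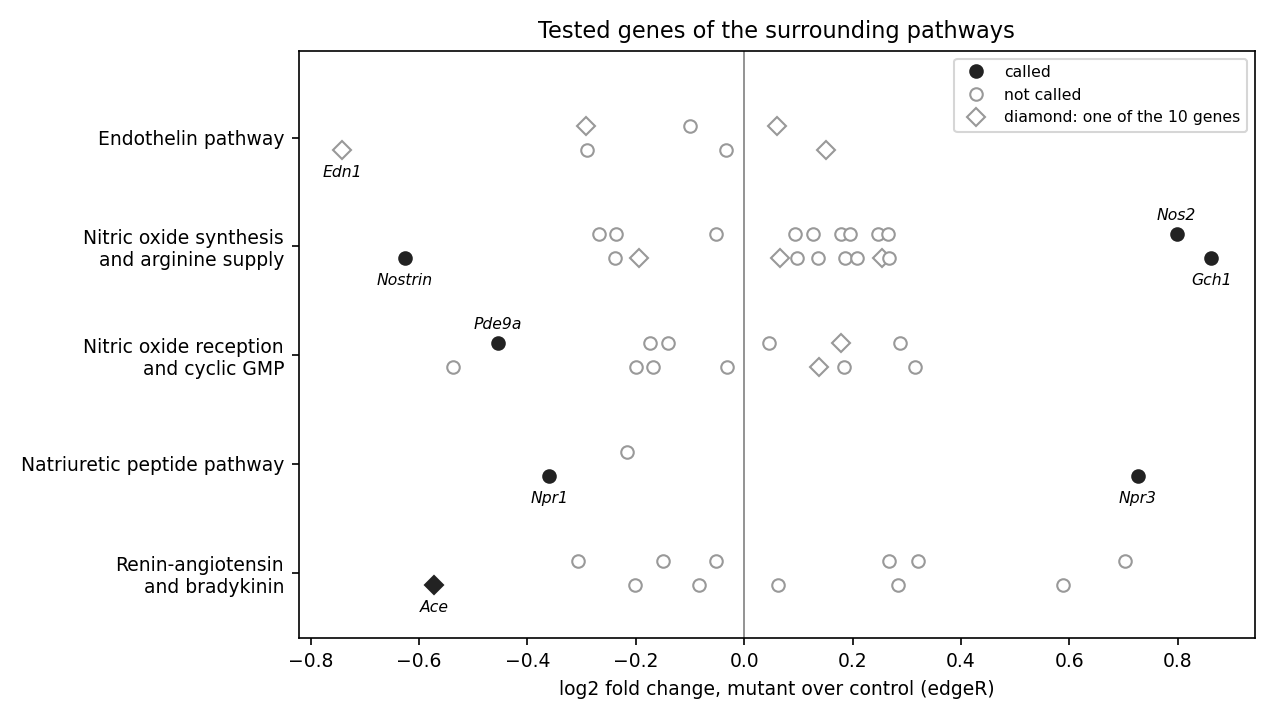
Log2 fold change of mutant over control (horizontal axis) of the tested genes of 5 pathway lists, one row per list, filled where called, with diamonds for the 10 genes. Ace, Nostrin, Pde9a and Npr1 lie on the lower side and Nos2, Gch1 and Npr3 on the higher side, while Edn1 lies lowest without a call.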

How the data were processed

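The authors deposited raw gene counts, whole numbers per gene symbol and library, per library and as one table, and 0 values differed between the 2 forms. Per the submitters' processing notes the build was mm10, and DESeq2 is named with no role or version. The sources used here name no aligner, counter, annotation or use of strand. Reads with no feature (53.9% to 58.2% of each library) and ambiguous reads (0.288% to 0.366%) entered neither library sizes nor tests. The main test was edgeR 4.0.16 in R 4.3.3: filterByExpr by group left 14934 genes, TMM factors, robust quasi-likelihood fit, two-sided F test of mutant against control on all 6 libraries, Benjamini-Hochberg adjustment over all genes, calls at 0.05. The SE is the fold change in log2 units over the square root of F, and CPM used TMM-scaled library sizes. DESeq2 1.42.0 and limma-voom (limma 3.58.1), other factors and filters, a replicate block, sex read from the counts and leaving out each library were alternatives. Replicates differed by more than sampling noise (chi-square per degree of freedom at least 12.3). Depth covers counting error only, and 3 reads correspond to 0.140 to 0.214 CPM.

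The 10 genes, the pathway lists and the marker lists were chosen with earlier results of these data known. Of the lists, genes named were the called ones, the 3 most abundant others and, per marker list, the called and some abundant genes. Agtr1a, Ren1, Prkg1 and Rgs5 fall outside that rule and were named after their values were seen. Mrvi1 stood for Irag1. GENCODE M21 on GRCm38, the assembly of mm10, gave exon lengths and coordinates by symbol. Lymphatic markers were also listed: of 5 tested, Lyve1 rose (log2 fold change 0.44) and 0 fell. Of 11 tested epithelial markers, 0 were called by edgeR and 0 had an unadjusted p under 0.05.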

Additional observations from a re-analysis of the deposited data

How the results depend on the processing

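The call of Ace and its direction held in the 14 alternatives run. DESeq2 and the replicate block called a second of the 10 genes as lower, which gives 2 called lower in each against 1. The second was Edn1 (adjusted p = 0.00329 in DESeq2 and 0.0278 with the replicate number as a block). The block gave 281 genes higher and 185 lower among all genes. Deviations of same-numbered libraries from their group means correlated at -0.00955, 0.0194 and 0.156. Mutant replicate 1 correlated best with control replicate 2 (0.0183) and mutant replicate 2 with control replicate 1 (0.119). Mutant replicate 3 correlated best with control replicate 3 (0.156), the highest value of all combinations. With so few libraries these values do not settle whether the numbers mark pairs, and the main test did not take them as pairs. With the block the calls of Pde9a and Npr1 ended (adjusted p = 0.0555 and 0.0858), and that of Npr1 also ended with limma-voom (0.0521) and with sex as a covariate (0.0672). None of the 10 genes was called higher in any alternative. Over all genes, DESeq2 called 443 higher and 311 lower, against 288 and 200. Fits without 1 library called 131 to 257 higher and 80 to 204 lower, with 131 and 80 without mutant replicate 2, 159 higher without control replicate 2, 191 higher without control replicate 3 and 116 lower without mutant replicate 1. Without 1 library the log2 fold change ran from -0.0072 to 0.11 for Ece1, -0.042 to 0.29 for Ednra and -0.085 to 0.36 for Gucy1a1, none of them called. The sign turned without control replicate 2 for Ece1 and without control replicate 3 for Ednra and Gucy1a1. With the longest transcript as length, 10 of 18 neighbouring pairs did not overlap, against 12. The spread between libraries, with 3 a group, limits Edn1, Ednra and Gucy1a1 most, the genes of largest SE here. The medians of all genes stayed within 0.02 of 0 on the log2 scale in every fit. The causes of these shifts were not tested.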
